A study of Mus musculus with 8 samples.

Results

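The kinase mTOR works in a pair of complexes, and 9 genes that encode their core subunits and closest regulators were followed in luminal cells of the mouse mammary gland. The genes were taken by name from a deposited table of 24594 genes listed by Entrez Gene ID, and all 9 were found there and passed the filter on low counts. mTORC1 holds the kinase (Mtor), the scaffold raptor (Rptor) and the shared subunit mLST8 (Mlst8), and drives protein synthesis and growth when nutrients and growth factors are present. mTORC2 holds the kinase and mLST8 with rictor (Rictor) in place of raptor, and phosphorylates AKT and related kinases. PRAS40 (Akt1s1) restrains mTORC1, and DEPTOR (Deptor) binds and restrains the kinase in both complexes. Hamartin and tuberin (Tsc1 and Tsc2) form a complex that switches off the small GTPase Rheb, the direct activator of mTORC1. In the mammary gland mTOR signalling is best known for its part in ductal growth and in milk synthesis.

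Luminal cells of the virgin gland fall into luminal progenitors (LP), which stain high for the receptor c-Kit, and mature hormone-sensing cells, which stain low. Both fractions came from wild type C57BL/6J mice that had received no treatment. EpCAM, CD49f, c-Kit and CD14 are listed as the stains for sorting, while the study describes the sort for this comparison as based on c-Kit. Kit is therefore no independent marker here, and Cd14 may not be one. RNA from 4 LP and 4 mature libraries was amplified from a low input before sequencing, and the labels give no age for the mice, which the methods of the study describe only as adults within 1 range for all its experiments. The labels number the replicates 1 to 4 in each fraction, and their library names share a leading number between the LP and the mature library of a replicate, without saying what it marks. The methods speak of biological replicates, and the labels do not tie a library to an animal, so p-values measure the spread between these libraries.

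The libraries held 5510863 to 7089597 counts in LP and 4410049 to 7791593 in mature cells. Levels are given as CPM, the read count of a gene scaled to a common library size, here with the TMM method of edgeR. The summed level of 5 progenitor markers (Kit, Elf5, Cd14, Aldh1a3 and Csn3) was 16171 to 26255 CPM in LP and 343 to 1639 CPM in mature libraries. Cd14 alone held 12142 to 18322 CPM in LP and 85.9 to 321 CPM in mature libraries, so much of this gap came from a gene that may have been a sort marker. Elf5, not a sort marker, was at 191 to 249 CPM in LP and 25.7 to 112 CPM in mature libraries. The other markers off the sort, Csn3 and Aldh1a3, did not overlap either, though Aldh1a3 was not called. The summed level of 6 hormone-sensing markers was 307 to 997 CPM in LP and 4370 to 6145 CPM in mature libraries. Basal markers summed to at most 75.5 CPM, immune markers to at most 7.80 CPM and endothelial markers to at most 8.48 CPM in any library, with Cd3e and Kdr at 0 throughout. Erythroid markers, nearly all Hba-a1, summed to 79.2 CPM in LP replicate 4, 66.1 CPM in mature replicate 4 and 29.3 CPM in mature replicate 3, and to at most 11.7 CPM elsewhere. Fibroblast markers summed to 133 and 171 CPM in mature replicates 1 and 2 and to at most 37.6 CPM elsewhere, but Dcn made up 132 and 154 CPM of those sums. Col1a1 was at 0 and Col1a2 under 1 CPM in both of these libraries, and within the mature group both collagens were highest in replicate 3, at 1.44 and 4.04 CPM. Pdgfra, the remaining fibroblast marker, was at 0.562 CPM in mature replicate 1 and at 16.3 CPM in mature replicate 2, its highest value in any library.

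Of the 9 genes, Deptor and Mlst8 were higher in LP, Rictor and Rheb were lower in LP, and the other 5 did not pass the test. Deptor differed most, with a 9.51-fold higher level in LP. A gene was called when its adjusted p-value in the quasi-likelihood test of edgeR was under 0.05, with adjustment over all 12816 tested genes. By that rule 24.7% of all tested genes were called, 10.9% as higher and 13.8% as lower in LP, so 4 called of 9 stands against that background. The median log2 fold change (LP minus mature) of the 9 genes was -0.02, against 0.00 over all tested genes. The LP and mature libraries did not overlap for 3 of the 9 genes, Deptor, Mlst8 and Rheb, against 29.5% of all tested genes. In such sorted bulk samples, fewer cells of a type and less RNA per cell cannot be told apart.

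**Figure D1:**
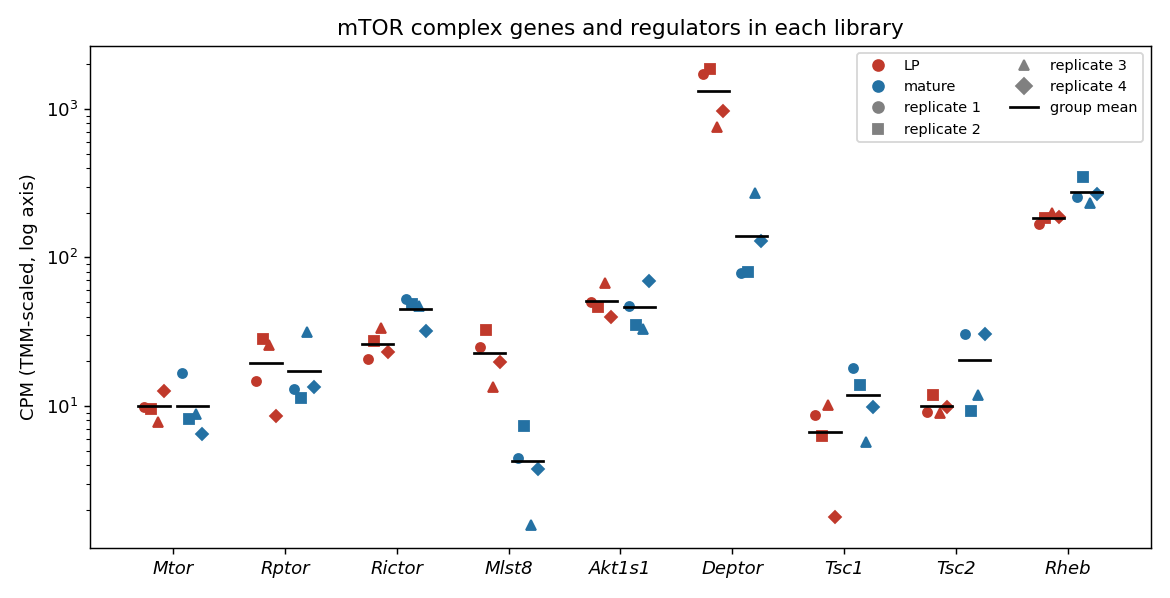
TMM-scaled CPM (log axis) of the 9 genes in each of 4 LP (red) and 4 mature (blue) libraries, with a symbol for each replicate and a black line at the group mean. Deptor lies at 754 to 1860 CPM in LP and 78.2 to 271 CPM in mature libraries, whereas Mtor, Rptor, Rictor, Akt1s1, Tsc1 and Tsc2 overlap between the fractions.

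Deptor (chromosome 15, 55112317 to 55259273 of mm10) encodes the inhibitor that both complexes share. It stood at 1722, 1860, 754 and 973 CPM in LP replicates 1 to 4 and at 78.2, 79.3, 271 and 129 CPM in mature replicates 1 to 4. Every LP library lay above every mature library, LP replicates 1 and 2 were the highest and mature replicate 3 was the highest of its group. The means were 1327 ± 546 CPM in LP and 139 ± 90.7 CPM in mature cells (SD, n = 4 each), and the log2 fold change was 3.25 with a 95% interval of 2.23 to 4.27 (adjusted p = 0.00101, edgeR). In the mature libraries the summed progenitor markers were 343, 582, 1639 and 1063 CPM in replicates 1 to 4. The sort marker Kit and the possible sort marker Cd14 are among them. The library with most Deptor was thus also the one with most progenitor marker RNA, and the part of this in the Deptor level was not tested. Without mature replicate 3 the log2 fold change was 3.82 (adjusted p = 0.000194, edgeR). Deptor is in the progenitor gene set that the study drew from this sorted comparison, so its membership there is no independent evidence.

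The antisense gene Gm9920 shares 303 bp of exon with Deptor on the opposite strand, and strand-specific counting was not stated, so reads of the shared stretch cannot be assigned. Its counts came to 3.02% to 5.30% of the Deptor counts in the 8 libraries. Gm9920 was also the gene whose pattern lay nearest to that of Deptor, with a root mean square distance of 0.246 between gene-centred log2 CPM values over the 8 libraries. The next were Man2a1, which encodes a Golgi mannosidase (0.258), the Notch target Hey1 (0.325), the lysosomal lipase gene Lipa (0.391) and the fatty acid desaturase gene Scd1 (0.412). Man2a1 had 88.6 ± 32.1 CPM in LP and 8.04 ± 5.23 CPM in mature cells (SD, n = 4 each). The nearness of these genes describes the same 8 libraries and has no test.

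Mlst8 (chromosome 17, 24473550 to 24479114 of mm10) encodes the beta-propeller subunit that sits on the kinase domain in both complexes. It had 24.8, 32.6, 13.4 and 19.7 CPM in LP and 4.50, 7.35, 1.59 and 3.77 CPM in mature replicates 1 to 4. The groups did not overlap, and replicate 3 was the lowest of both. The means were 22.7 ± 8.12 CPM and 4.30 ± 2.38 CPM (SD, n = 4 each), a 5.35-fold difference with a log2 fold change of 2.42 and a 95% interval of 1.37 to 3.47 (adjusted p = 0.00472, edgeR). The raw counts were low, from 81 to 227 in LP and from 11 to 32 in mature libraries.

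Reads counted for Mlst8 may include those of another gene. All 997 bp of the annotated exons of Bricd5, a gene on the opposite strand, lie within the exons of Mlst8, and reads there cannot be told apart without strand. Bricd5 had 123, 198, 56 and 101 counts in LP and 29, 16, 11 and 18 counts in mature libraries, against 171, 227, 81 and 142 and then 32, 28, 11 and 25 for Mlst8. In mature replicate 3 both genes thus had 11 counts. Bricd5 also passed the test, with a log2 fold change of 2.48 (adjusted p = 0.00427, edgeR). With the Bricd5 counts taken off, a step chosen after its values were seen, Mlst8 kept 48, 29, 25 and 41 counts in LP and 3, 12, 0 and 7 in mature libraries. That remainder was 5.24 ± 1.36 CPM in LP and 1.16 ± 1.40 CPM in mature cells (SD, n = 4 each), still without overlap (p = 0.0286 by exact permutation, two-sided, the lowest value these groups allow). Pgp, which encodes a phosphoglycolate phosphatase and neighbours Mlst8 on the opposite strand without sharing exon bases, was likewise higher in LP, at 160 to 253 CPM against 38.4 to 73.2 CPM (log2 fold change 2.03, adjusted p = 0.000479, edgeR).

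Rictor (chromosome 15, 6708349 to 6800401 of mm10), the scaffold that defines mTORC2, was lower in LP. It had 20.8, 27.3, 33.7 and 23.2 CPM in LP and 52.7, 48.9, 46.9 and 31.8 CPM in mature replicates 1 to 4. Mature replicate 4 lay just under LP replicate 3, so the groups overlapped by that pair. The means were 26.2 ± 5.66 CPM in LP and 45.1 ± 9.18 CPM in mature cells (SD, n = 4 each), 1.72-fold higher in mature cells, with a log2 fold change of -0.78 and a 95% interval of -1.30 to -0.26 (adjusted p = 0.0326, edgeR). The call was lost with no filter on low counts (adjusted p = 0.0652, edgeR). It was also lost without LP replicate 1, 2 or 4 (adjusted p = 0.0958, 0.0702 and 0.0859, edgeR) and without mature replicate 1, 2 or 3 (adjusted p = 0.0936, 0.0791 and 0.0625, edgeR), while the log2 fold change stayed between -0.92 and -0.68.

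Rheb (chromosome 5, 24802823 to 24842361 of mm10), the GTPase that switches mTORC1 on, was also lower in LP. It had 167, 183, 198 and 188 CPM in LP and 254, 350, 231 and 266 CPM in mature replicates 1 to 4. The LP libraries lay close together and all below the lowest mature library. The means were 184 ± 13.0 CPM in LP and 275 ± 51.8 CPM in mature cells (SD, n = 4 each), 1.49-fold higher in mature cells, with a log2 fold change of -0.58 and a 95% interval of -0.94 to -0.22 (adjusted p = 0.0252, edgeR). The call was lost with no filter on low counts (adjusted p = 0.0537, edgeR), without LP replicate 1, 2 or 4 (adjusted p = 0.0829, 0.0679 and 0.0593, edgeR) and without mature replicate 2 (adjusted p = 0.0724, edgeR).

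The reference promoters of Rictor, Rheb and Mlst8 are shown because Rictor and Rheb shifted the same way and Mlst8 the other way. That of Deptor is not shown. Each runs from 250 bases before to 50 bases after a RefSeq start site on GRCm38.p6, on the strand of the gene. For Rictor and Mlst8 this start site lies inside the gene span given above, and for Rheb it is at the end of the span. They are chr15:6708131-6708430 on the plus strand for Rictor, chr5:24842312-24842611 on the minus strand for Rheb and chr17:24479029-24479328 on the minus strand for Mlst8. Capitals mark matches, on either strand, to GATAA (GATA factors), CCGGAA (ETS factors), CACGTG (the E-box) or TTCNNNGAA (STAT factors), and no printed matches overlap.
Rictor: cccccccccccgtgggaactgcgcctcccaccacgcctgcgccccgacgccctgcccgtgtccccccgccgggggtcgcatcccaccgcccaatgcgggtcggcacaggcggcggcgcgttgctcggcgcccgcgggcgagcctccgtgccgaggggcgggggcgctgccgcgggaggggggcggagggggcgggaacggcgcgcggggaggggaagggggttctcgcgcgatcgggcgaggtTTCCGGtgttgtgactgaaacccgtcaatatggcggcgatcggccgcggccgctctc
Rheb: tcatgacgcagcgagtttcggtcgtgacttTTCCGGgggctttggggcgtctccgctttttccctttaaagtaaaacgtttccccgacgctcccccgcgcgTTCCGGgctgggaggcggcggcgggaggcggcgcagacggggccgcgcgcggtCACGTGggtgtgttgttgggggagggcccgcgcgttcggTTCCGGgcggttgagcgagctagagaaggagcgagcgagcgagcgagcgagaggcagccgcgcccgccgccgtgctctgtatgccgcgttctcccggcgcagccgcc
Mlst8: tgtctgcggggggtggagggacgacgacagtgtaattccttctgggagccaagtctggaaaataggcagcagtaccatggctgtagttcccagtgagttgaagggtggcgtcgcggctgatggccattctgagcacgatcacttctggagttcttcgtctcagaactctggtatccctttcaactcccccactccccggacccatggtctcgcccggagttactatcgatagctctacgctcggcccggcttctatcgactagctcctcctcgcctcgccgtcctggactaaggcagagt
The promoter of Rictor held an ETS match starting at -7, counted with the start site used here as 0, so within the gene span given above. That of Rheb held ETS matches starting at -220, -149 and -57 and an E-box at -96, and that of Mlst8 held none of the motifs. Among all 32851 promoters in the table, 14.9% held the ETS letters, 7.15% the E-box, 25.4% the GATA letters and 8.30% the STAT letters, so a match in a single promoter is a description of its letters only. G and C made up 78.3% of the bases for Rictor, 70.0% for Rheb and 57.7% for Mlst8, against a median of 52.7% over all promoters.

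The kinase gene itself, and the subunit and inhibitor that belong to mTORC1 alone, were not called. Mtor (chromosome 4, 148448582 to 148557685 of mm10) had 9.87, 9.49, 7.80 and 12.6 CPM in LP and 16.7, 8.14, 8.81 and 6.48 CPM in mature libraries. The fractions overlapped fully, and the log2 fold change of -0.02 had a 95% interval of -0.88 to 0.84 (adjusted p = 0.983, edgeR). A difference in Mtor within that interval was therefore not excluded. Rptor (chromosome 11, 119602905 to 119899591) had 14.8, 28.3, 25.9 and 8.60 CPM in LP and 13.1, 11.3, 31.6 and 13.4 CPM in mature libraries. Mature replicate 3 stood apart from the rest of its group, and the log2 fold change was 0.16 with a 95% interval of -0.84 to 1.15 (adjusted p = 0.835, edgeR). Akt1s1 (chromosome 7, 44849224 to 44855421) had 50.2, 46.1, 67.4 and 39.5 CPM in LP and 47.2, 35.2, 33.2 and 69.5 CPM in mature libraries, with a log2 fold change of 0.13 and the narrowest interval of these uncalled genes, -0.46 to 0.72 (adjusted p = 0.758, edgeR). The sign of each of these differences turned when some single library was left out. Mtor was 0.37 without mature replicate 1 and also turned without LP replicate 2 or 3, at 0.01 and 0.09. Rptor was -0.08 without LP replicate 2 and -0.01 without LP replicate 3, and Akt1s1 was -0.03 without LP replicate 3.

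Both genes of the TSC complex, the brake on Rheb, had lower means in LP without passing the test. Tsc1 (chromosome 2, 28640993 to 28691172) had 8.71, 6.33, 10.1 and 1.80 CPM in LP and 18.1, 13.9, 5.77 and 9.79 CPM in mature libraries. Its lowest value, in LP replicate 4, rested on 13 reads, and the log2 fold change of -0.82 had a 95% interval of -2.03 to 0.39 (adjusted p = 0.305, edgeR). Tsc2 (chromosome 17, 24595816 to 24632676) had 9.15, 11.9, 8.96 and 9.85 CPM in LP and 30.4, 9.19, 11.8 and 30.6 CPM in mature libraries. Mature replicates 1 and 4 stood far above LP while mature replicates 2 and 3 lay within its range, and the log2 fold change was -1.04 with a 95% interval of -1.97 to -0.12 (adjusted p = 0.0948, edgeR). Without mature replicate 2 it passed the test at -1.26 (adjusted p = 0.0401, edgeR). Tsc2 shares 693 bp of exon with Pkd1 on the opposite strand, which had 3.59 to 4.65 CPM in LP and 3.41 to 10.5 CPM in mature libraries.

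**Figure D2:**
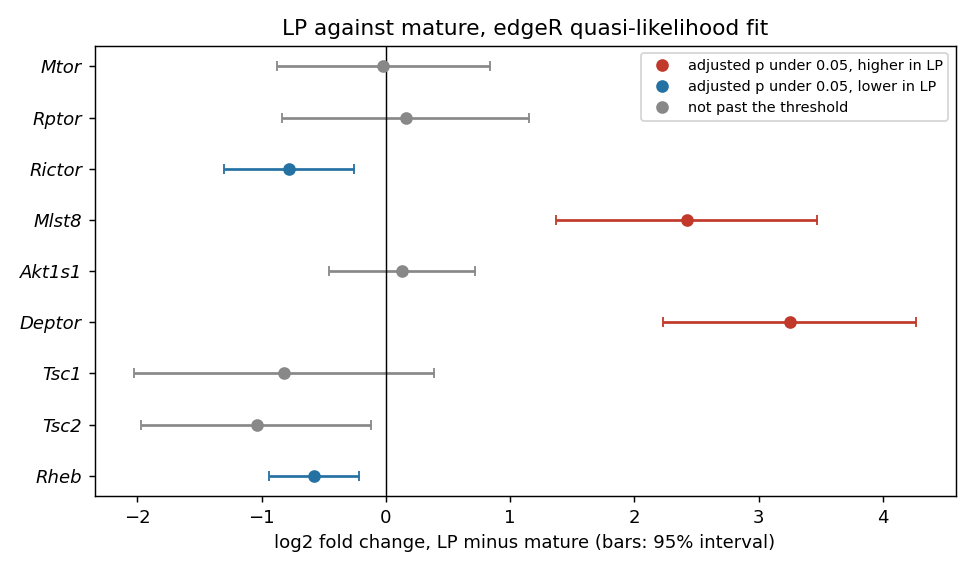
Log2 fold change (LP minus mature, 4 libraries each) of the 9 genes from the edgeR quasi-likelihood fit, with bars for the 95% interval. Deptor (3.25) and Mlst8 (2.42) lie above 0 with their whole intervals, Rictor (-0.78) and Rheb (-0.58) below it, and the interval of Tsc2 (-1.97 to -0.12) also leaves out 0 although its adjusted p-value missed the threshold.

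Divided by exon length, the 9 genes spanned more than 2 orders of magnitude in LP and less in mature cells. On this scale (CPM per kb of all annotated exons) Deptor was the most abundant of the 9 in LP at 149.6 ± 61.5, ahead of Rheb at 23.9 ± 1.68, Akt1s1 at 16.5 ± 3.87 and Mlst8 at 5.11 ± 1.83 (SD, n = 4). Rictor (1.55), Rptor (1.44), Tsc2 (1.04), Mtor (0.984) and Tsc1 (0.570) followed, and each neighbouring pair among these 5 overlapped in the range of its LP libraries, as did Rheb with Akt1s1. In mature cells Rheb led at 35.7 ± 6.71, followed by Deptor at 15.7 ± 10.2 and Akt1s1 at 15.1 ± 5.42, and Mlst8 had the lowest mean of all at 0.970 ± 0.537 (SD, n = 4). There every neighbouring pair except Akt1s1 and Rictor overlapped. In both fractions Mlst8 is placed with any reads it shares with Bricd5, and its place without them was not determined. The aligner does not split reads across introns, which removes reads at exon junctions. Levels of genes with many short exons, such as Mtor with 58 in its longest transcript, could be understated, which was not tested. Levels also depend on the length used. The longest annotated transcript of Rheb has 3 exons and 4046 bp, against 7721 bp for all its exons, and gave 45.5 in place of 23.9 in LP. Which transcripts the cells expressed was not tested, so the order and shares hold only for these annotated lengths.

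Deptor RNA thus made up 80.0%, 80.0%, 59.8% and 70.4% of the length-scaled level of the 9 genes in LP replicates 1 to 4. In mature replicates 1 to 4 it made up 12.8%, 12.1%, 38.4% and 18.2%, so the groups did not overlap. Per length it exceeded Mtor 87.8-fold to 223-fold in LP and 5.32-fold to 35.0-fold in mature libraries. With the length of the longest transcript in place of all exons, the shares were 48.3% to 71.9% in LP and 7.43% to 26.9% in mature libraries, still without overlap. These are RNA levels, and protein was not measured here.

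**Figure D3:**
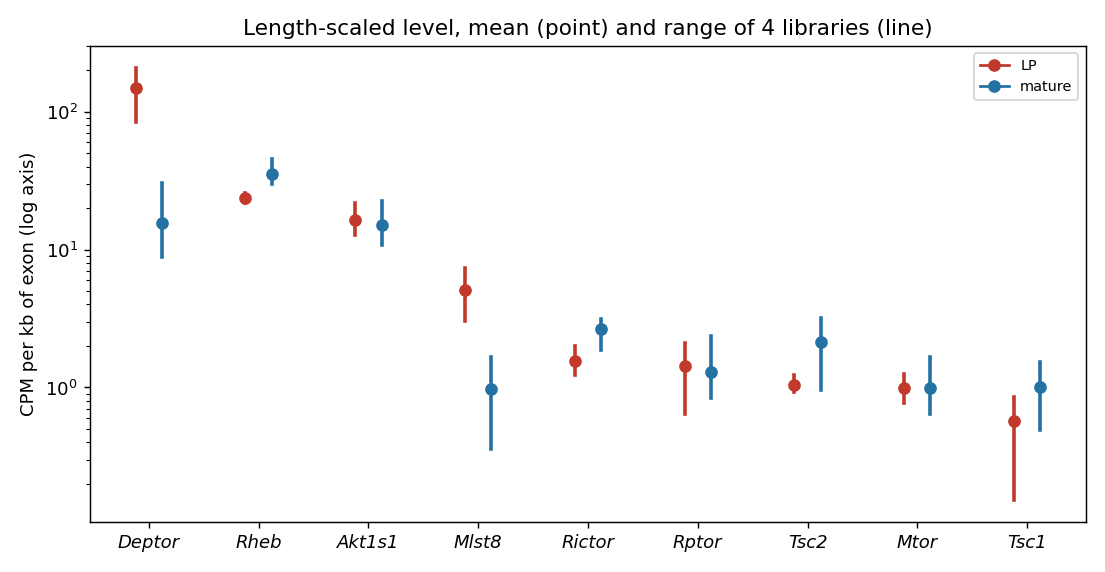
CPM per kb of exon (log axis) for the 9 genes, ordered by the LP mean, with points for the mean and lines for the range of 4 LP (red) or 4 mature (blue) libraries. Deptor leads in LP at 149.6 and Rheb in mature cells at 35.7. Mlst8, with any reads it shares with Bricd5 included, moves from the fourth place in LP to the last in mature cells.

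3 ratios within a library were compared between the fractions. They depend on how libraries are scaled only through the 0.5 CPM added to each gene. The log2 ratio of Deptor to Mtor, inhibitor to kinase, was 7.38, 7.54, 6.51 and 6.21 in LP and 2.19, 3.21, 4.86 and 4.22 in mature libraries, after 0.5 CPM was added to each gene. The means of 6.91 ± 0.649 and 3.62 ± 1.17 (SD, n = 4 each) differed by 3.29 without overlap (p = 0.0286 by exact permutation, two-sided, again the lowest possible), and after adjustment over the 3 ratios this missed the threshold (adjusted p = 0.0857, exact permutation). The log2 ratio of Rptor to Rictor, the scaffold of mTORC1 to that of mTORC2, averaged -0.54 ± 0.601 in LP and -1.45 ± 0.706 in mature cells, and the groups overlapped (p = 0.114, adjusted p = 0.171, exact permutation, n = 4 each). The log2 ratio of Tsc1 to Tsc2 averaged -0.73 ± 1.05 in LP and -0.68 ± 0.912 in mature cells (p = 0.971, adjusted p = 0.971, exact permutation, n = 4 each), and its values ran from -2.17 to 0.17 in LP and from -1.59 to 0.57 in mature libraries. The difference in this last ratio changed sign without LP replicate 4 (0.43) or mature replicate 2 (0.37).

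**Figure D4:**
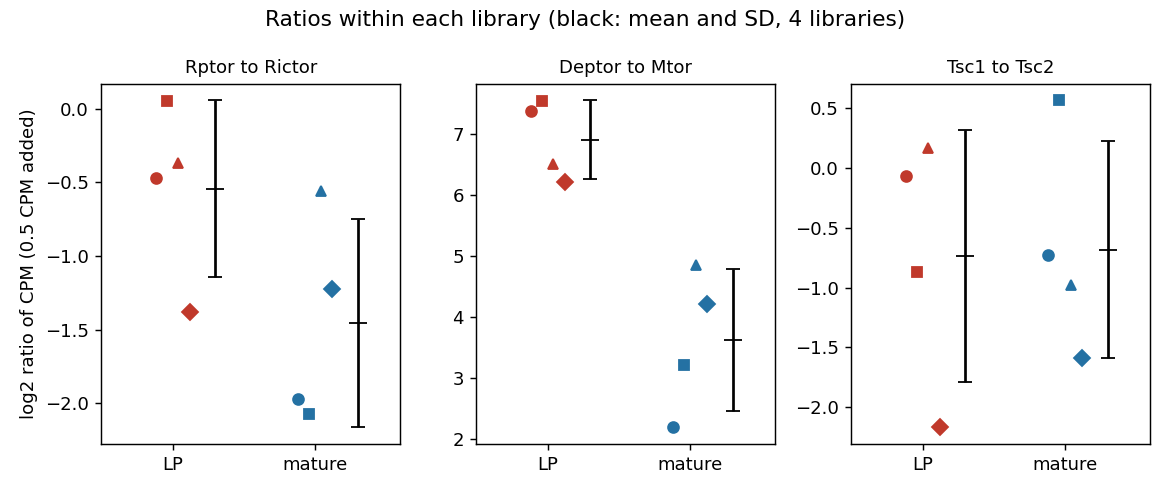
Log2 ratio of CPM (0.5 CPM added) of Rptor to Rictor, Deptor to Mtor and Tsc1 to Tsc2 in each of 4 LP (red) and 4 mature (blue) libraries, with black bars for mean and SD. Only the Deptor to Mtor ratio separates the fractions, at 6.21 to 7.54 in LP against 2.19 to 4.86 in mature libraries.

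Beyond the 9 genes, 10 lists of their partners, inputs and outputs held 110 genes, of which 105 were tested. 11 were higher and 11 lower in LP, with a median log2 fold change of -0.02 against 0.00 over all tested genes. That is 22 called of 105, against 24.7% of all tested genes. The libraries of the fractions did not overlap for 28 of the 105, against 29.5% of all tested genes. The genes described next are those that passed the test.

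Among 6 assembly partners (median log2 fold change 0.18), 2 were called, both higher in LP. Prr5l, which encodes a rictor-binding protein, had 11.04, 26.5, 14.3 and 53.4 CPM in LP and 0.00, 0.263, 4.76 and 3.16 CPM in mature libraries (log2 fold change 3.62, adjusted p = 0.0173, edgeR). The groups did not overlap, and without LP replicate 4, its highest library, the call was lost at 3.03 (adjusted p = 0.0648, edgeR). Tti1, part of the TTT chaperone that assembles mTOR and related kinases, had 18.8 to 44.0 CPM in LP and 6.64 to 14.5 CPM in mature libraries (log2 fold change 1.46, adjusted p = 0.0106, edgeR). Mapkap1, which encodes the mTORC2 subunit SIN1, was at 126 to 135 CPM in LP and 119 to 195 CPM in mature libraries and was not called (log2 fold change -0.35, adjusted p = 0.165, edgeR). Tbc1d7, the third subunit of the TSC complex, had 6.39, 12.9, 9.96 and 11.9 CPM in LP and 2.39, 2.89, 5.49 and 4.22 CPM in mature libraries. It did not overlap and was higher in LP by 1.45 on the log2 scale (adjusted p = 0.0346, edgeR), whereas the means of Tsc1 and Tsc2 lay lower. That call was lost in 6 of 8 fits that left out a library, all except those without LP replicate 1 or mature replicate 3, with adjusted p-values of edgeR up to 0.102.

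Of 17 tested genes that carry growth factor signals to AKT (median log2 fold change -0.09), 3 were called by the quasi-likelihood test of edgeR, all higher in LP. Pik3cb, a catalytic subunit gene, was lower in LP by other tests only (adjusted p = 0.0267 with DESeq2, 0.0282 with the likelihood ratio test of edgeR and 0.0679 with the quasi-likelihood test), and Pik3r3 was lower without mature replicate 1 (log2 fold change -1.52, adjusted p = 0.0445, edgeR). Pik3r1, which encodes the p85 alpha regulatory subunit of PI3K, had 784, 711, 921 and 1008 CPM in LP and 55.7, 52.3, 102.9 and 92.8 CPM in mature libraries. This difference of 3.49 on the log2 scale was the most significant in the lists (adjusted p = 0.000104, edgeR). Igf1r, the receptor for insulin-like growth factors, had 118, 129, 147 and 77.8 CPM in LP and 12.5, 11.03, 25.6 and 17.9 CPM in mature libraries (log2 fold change 2.80, adjusted p = 0.000326, edgeR). The adaptor gene Irs1, which links that receptor to PI3K, had 118, 211, 110.2 and 116 CPM in LP and 30.2, 28.6, 30.2 and 29.5 CPM in mature libraries (log2 fold change 2.23, adjusted p = 0.000269, edgeR). For all 3 the groups were far apart, and the insulin receptor gene Insr leaned the other way without being called, at 17.6 to 33.2 CPM in LP and 35.7 to 48.1 CPM in mature libraries (log2 fold change -0.62, adjusted p = 0.0868, edgeR). The catalytic subunit gene Pik3ca, at 37.9 to 40.5 CPM in LP and 30.5 to 48.8 CPM in mature libraries, was not called, nor were Akt1 and Akt2. Pik3r1 and Irs1 are, like Deptor, in the progenitor set that the study drew from this comparison.

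Of 11 genes of energy and stress input (median log2 fold change -0.15), 1 was higher and 2 were lower in LP. Ddit4, which encodes the stress-induced mTORC1 inhibitor REDD1, had 37.8, 28.3, 84.5 and 46.3 CPM in LP and 456, 430.2, 161 and 106 CPM in mature replicates 1 to 4 (log2 fold change -2.55, adjusted p = 0.00469, edgeR). The groups did not overlap, and mature replicates 1 and 2, the libraries with the most Dcn, were higher than 3 and 4. Across genes, mature replicates 1 and 2 were also the most alike of their group. Their counts differed by a chi-square per degree of freedom of 15.5, against 54.3 to 95.7 for the other mature pairs. The other fibroblast markers were mixed. Col1a1 was at 0 in mature replicates 1 and 2, while Pdgfra was at 0.562 CPM in replicate 1 and at 16.3 CPM, its highest value, in replicate 2. The part of other cells in the Ddit4 level was not tested. Without mature replicate 1 or 2, Ddit4 stayed called. Cab39, which encodes a scaffold of the kinase LKB1, had 69.6 to 99.1 CPM in LP and 122 to 193 CPM in mature libraries (log2 fold change -0.81, adjusted p = 0.0131, edgeR). Prkaa2, the alpha2 catalytic subunit of AMPK, had 41.7, 55.8, 54.1 and 36.6 CPM in LP and 3.94, 23.6, 16.6 and 23.4 CPM in mature libraries (log2 fold change 1.49, adjusted p = 0.0318, edgeR). Its call was lost without LP replicate 1, 2 or 3 (adjusted p = 0.0568, 0.0815 and 0.0727, edgeR) and without mature replicate 3 (adjusted p = 0.0518, edgeR). The alpha1 gene Prkaa1 was not called, at 36.7 to 63.1 CPM in LP and 46.1 to 58.3 CPM in mature libraries.

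The machinery that senses amino acids at the lysosome was read from its Rag and Ragulator genes and from the complexes above them. The Rag and Ragulator list also held Slc38a9, Flcn, Fnip1 and Fnip2. None of its 12 tested genes was called by the quasi-likelihood test of edgeR with all libraries and no replicate block. Their log2 fold changes ran from -1.54 (Rragd) to 0.67 (Lamtor4) with a median of -0.03. 5 of them had an unadjusted p under 0.05, and the share of all tested genes under that limit was not determined. The DESeq2 Wald test called 1 and the likelihood ratio test of edgeR called 0, against 3792 and 3736 of all 12816 tested genes. Among the 12, Lamtor4 was called by DESeq2 and, by edgeR, without mature replicate 2 (0.87, adjusted p = 0.0334). Fnip1 was lower without LP replicate 1 (-0.85, adjusted p = 0.0159, edgeR), and Rragd was lower with the replicate block (-1.74, adjusted p = 0.0498, edgeR). Of 16 tested genes of GATOR, KICSTOR and the amino acid sensors (median log2 fold change 0.45), 1 was higher and 1 was lower in LP. Sec13, which encodes a GATOR2 subunit that also serves the COPII coat and the nuclear pore, had 79.0 to 113 CPM in LP and 45.6 to 56.5 CPM in mature libraries (log2 fold change 0.89, adjusted p = 0.00391, edgeR). Bmt2, which encodes the methionine-pathway sensor SAMTOR, had 5.23, 15.8, 19.1 and 13.0 CPM in LP and 37.1, 32.6, 40.7 and 23.2 CPM in mature libraries (log2 fold change -1.33, adjusted p = 0.0241, edgeR). Its call was lost without LP replicate 4 and without mature replicate 1, 2 or 3 (adjusted p = 0.0596, 0.0595, 0.0502 and 0.0551, edgeR). Without mature replicate 4, Mios was also called (0.82, adjusted p = 0.0157, edgeR).

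Among 21 genes that mTORC1 acts on in translation and growth (median log2 fold change -0.17), 1 was higher and 4 were lower in LP. The translation factor genes Eif4b and Eef2 were lower without overlap, Eif4b at 139 to 179 CPM in LP and 357 to 406 CPM in mature libraries (log2 fold change -1.18, adjusted p = 0.000569, edgeR). Eef2, the elongation factor, had 506 to 644 CPM in LP and 1046 to 1427 CPM in mature libraries (log2 fold change -1.05, adjusted p = 0.00210, edgeR). The 2 main genes for the eIF4E-binding repressors of cap-dependent translation went opposite ways. Eif4ebp2 had 59.5, 61.2, 60.6 and 68.5 CPM in LP and 16.3, 32.3, 28.0 and 26.1 CPM in mature libraries, and was higher in LP by 1.29 on the log2 scale (adjusted p = 0.00248, edgeR). Eif4ebp1 had 131, 174, 182 and 145 CPM in LP and 547, 700.0, 232 and 177 CPM in mature libraries, and was lower in LP with overlapping groups (log2 fold change -1.39, adjusted p = 0.0241, edgeR). Mature replicates 1 and 2 again stood high, as for Ddit4, and the Eif4ebp1 call was lost without LP replicate 1, 2 or 4 (adjusted p = 0.0702, 0.0564 and 0.0660, edgeR) and without mature replicate 1 or 2 (adjusted p = 0.0637 and 0.0697, edgeR). Rps6, the ribosomal protein phosphorylated by S6 kinase, had 255 to 282 CPM in LP and 322 to 535 CPM in mature libraries (log2 fold change -0.67, adjusted p = 0.0220, edgeR). That call was lost in 6 of 8 fits that left out a library, all except those without mature replicate 1 or 2, with adjusted p-values of edgeR up to 0.0667. The S6 kinase gene Rps6kb1 was not called, at 45.6 to 64.5 CPM in LP and 42.0 to 77.7 CPM in mature libraries. Maf1 was higher without mature replicate 4 (0.49, adjusted p = 0.0480, edgeR).

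Of 4 tested mTORC2 substrates (median log2 fold change 0.16), 1 passed the test. Prkca, which encodes protein kinase C alpha, was higher in LP. It had 69.0, 153, 92.3 and 57.0 CPM in LP and 29.9, 44.1, 42.6 and 23.1 CPM in mature libraries (log2 fold change 1.41, adjusted p = 0.0102, edgeR). Sgk1, another kinase of this branch, had 74.6 to 121 CPM in LP and 67.0 to 177 CPM in mature libraries and was not called. Ndrg1 was lower without mature replicate 4 (-1.58, adjusted p = 0.0119, edgeR).

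DEPTOR protein is marked for destruction by the ubiquitin ligase SCF with beta-TrCP. Of the 6 genes listed for this turnover (median log2 fold change -0.26), 3 were called, against 24.7% of all tested genes. Btrc and Fbxw11, the genes of the paired beta-TrCP substrate receptors, were both lower in LP. The ligase acts on protein, which was not measured, and any link to the Deptor RNA level was not tested. Btrc had 164, 175, 168 and 168 CPM in LP and 243, 279, 345 and 329 CPM in mature libraries (log2 fold change -0.83, adjusted p = 0.00361, edgeR). Fbxw11 had 130.1, 84.8, 131 and 115 CPM in LP and 256, 234, 241 and 309 CPM in mature libraries (log2 fold change -1.18, adjusted p = 0.00137, edgeR). Neither overlapped between the fractions, and both stayed called in all 14 alternative fits. Rbx1, the RING subunit, went the other way, at 129 to 164 CPM in LP and 71.5 to 114 CPM in mature libraries (log2 fold change 0.64, adjusted p = 0.0235, edgeR), and its call was lost without LP replicate 2 or 4 (adjusted p = 0.0675 and 0.0680, edgeR). Cul1, Skp1 and Csnk1a1 were not called.

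Atf4, the transcription factor through which mTORC1 raises amino acid and one-carbon synthesis genes, was lower in LP, as was 1 other of the 10 genes of its branch (median log2 fold change -0.43). It had 78.7, 50.6, 60.9 and 44.0 CPM in LP and 382, 467, 252 and 211 CPM in mature libraries (log2 fold change -2.49, adjusted p = 0.000432, edgeR). Its target Mthfd2, a mitochondrial folate enzyme, had 16.4, 10.9, 13.6 and 15.3 CPM in LP and 52.9, 75.4, 36.8 and 52.4 CPM in mature libraries (log2 fold change -1.95, adjusted p = 0.000742, edgeR). Both were separated without overlap. The other 8 genes of this branch, among them Asns, Psat1 and Shmt2, were not called by the quasi-likelihood test of edgeR. In that test 6 of the 10 had an unadjusted p under 0.05, and 1 of these, Shmt2, leaned higher in LP (log2 fold change 0.70). The share of all tested genes under that unadjusted limit was not determined. The amino acid transporter gene Slc7a5 was lower by DESeq2 (adjusted p = 0.0365), by the likelihood ratio test (adjusted p = 0.0470, edgeR) and without mature replicate 4 (-1.76, adjusted p = 0.0160, edgeR), and Shmt2 was higher without mature replicate 2 (0.92, adjusted p = 0.0450, edgeR).

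**Figure D5:**
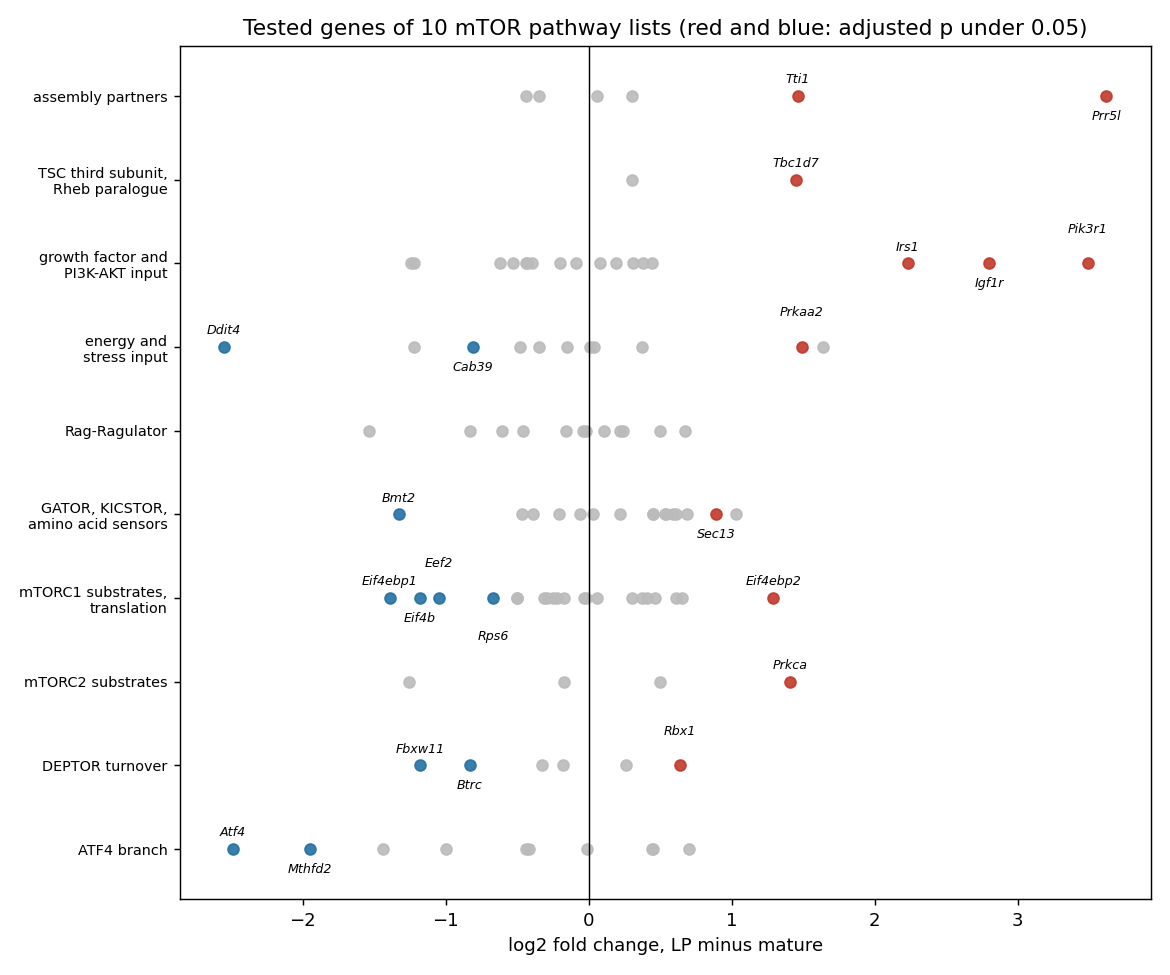
Log2 fold change (LP minus mature, 4 libraries each) of the 105 tested genes of 10 lists around mTOR, 1 point a gene and 1 line a list, with genes past an adjusted p-value of 0.05 in red (higher in LP) or blue (lower in LP) and named. Prr5l has the highest value at 3.62 and Ddit4 the lowest at -2.55, and Pik3r1, Igf1r and Irs1 lie at 2.23 to 3.49, away from the rest of their own list. No gene of the Rag and Ragulator list, which also holds Slc38a9, Flcn, Fnip1 and Fnip2, is coloured.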

How the data were processed

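RNA from 4 LP and 4 mature libraries was sequenced as single-end reads. The authors trimmed reads with cutadapt 4.2 and aligned them to mm10 with Bowtie2 2.3.5.1, versions per the submitters' processing notes, which list a human build beside mm10. They deposited raw counts per Entrez Gene ID without normalization; the counting program, its annotation and its use of strand are not given in the sources used here. The methods state fewer replicates per condition than the 4 libraries deposited for each fraction, and all 8 were used. Of 24594 IDs, 24570 matched a RefSeq symbol.

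Counts were scaled by TMM, filtered with filterByExpr (12816 genes kept) and compared with the quasi-likelihood test of edgeR 4.0.16 (R 4.3.3) without pairing, with Benjamini-Hochberg adjustment. CPM has no added count. A standard error is the absolute log2 fold change over the square root of F, and a 95% interval uses the t quantile. Ratios were tested by exact permutation (Python 3.11.15), with 0.5 CPM added. Exon lengths came from GENCODE, in place of the RefSeq lengths first planned; promoters came from RefSeq, for 8 of the 9 genes. Alternatives were other scaling (RLE, upper-quartile), DESeq2 1.42.0, a likelihood ratio test, no filter, a replicate block and each library left out. The test was tried on simulated data.

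Named genes were all 9 members, up to 5 called genes a list, the 5 nearest patterns to the member with the smallest p, and overlapping or adjacent genes; others named are said to be uncalled or were named as markers, after their values were seen. The members and lists were chosen with earlier results of these data known. 2 listed genes could not be matched to the table.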

Additional observations from a re-analysis of the deposited data

Results flagged for a closer look

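In 68 groups of 4 libraries, for the 9 genes, the 22 called pathway genes and the 3 ratios, a single library far from its group was found in 2, and chance alone marks about 1 group in 20. Rptor stood at 31.6 CPM in mature replicate 3, against 11.3 to 13.4 CPM in the other mature libraries. Irs1 stood at 211 CPM in LP replicate 2, against 110.2 to 117.9 CPM in the other LP libraries. Without mature replicate 3 the log2 fold change of Rptor was 0.65 (LP minus mature), and it was still not called.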

How the results depend on the processing

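Deptor and Mlst8 were called as higher in LP in all 14 alternative fits, with log2 fold changes of 3.05 to 3.82 and 2.17 to 2.80. All of these fits used the Mlst8 counts with any Bricd5 reads in them. With no filter on low counts, 0 of the 9 genes were called lower in LP in place of 2, and 0 to 2 were when a library was left out, while 2 were higher throughout. Mtor, never called, changed sign with upper-quartile factors (0.02), no filter (0.05) and the replicate block (0.06), and without a library it ran from -0.15 to 0.37. Leaving out a library gave -0.08 to 0.65 for Rptor, -0.03 to 0.43 for Akt1s1, -0.36 to 0.43 for the Tsc1 to Tsc2 ratio, 0.71 to 1.21 for the Rptor to Rictor ratio and 2.81 to 3.70 for the Deptor to Mtor ratio; over the lists it gave 8 to 12 genes higher and 8 to 12 lower. The causes were not tested. Taking Bricd5 counts off Mlst8 left a log2 ratio of means of 2.18. With lengths of the longest transcript, Deptor still led in LP and Rheb in mature cells, while Rptor and Rictor exchanged places in LP, and Akt1s1 and Deptor in mature cells.

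Libraries with the same replicate number correlated at 0.113, 0.0618, 0.148 and 0.0844 after group means were removed, and 7 of 8 libraries matched best the one with their own number (mature replicate 2 matched LP replicate 1). The labels do not say what a number marks. In the fit with the replicate block 2 of the 9 genes were higher and 2 lower, as without it, and the lists gave 10 and 12 called genes in place of 11 and 11; Tbc1d7 missed the threshold there (1.47, adjusted p = 0.0568, edgeR) and Rragd passed it (-1.74, adjusted p = 0.0498, edgeR). Sign-flips within pairs cannot go below p = 0.125 for the ratios (exact test). Mtor, Tsc1 and Tsc2 rest on 13 to 216 reads a library, which leaves their intervals wide.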
